A study of Mus musculus with 8 samples.

Results

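The genes described here are 10 that control the step from G1 into S phase of the cell cycle: the D and E cyclins Ccnd1, Ccnd2, Ccnd3, Ccne1 and Ccne2, the cyclin-dependent kinases Cdk2, Cdk4 and Cdk6, and the kinase inhibitors Cdkn1b and Cdkn2c. They were taken as a named set, chosen with earlier results of these data known though not by a threshold on their values, and compared between wild-type and VWA8-null AML12 cells. A gene was represented by the probe set, among those annotated to exactly 1 gene symbol, with the highest mean over all 8 arrays. By that rule 9 of the 10 genes were measured, among 22180 genes in all. The probe set annotated to Ccne2, the second E cyclin, is shared with Ints8, so no value is given for it. Each of the 9 had a single probe set.

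AML12 is an established line of hepatocytes from the liver of a mouse that carried a human TGF-alpha transgene, a growth factor gene, and both groups were grown in serum-containing medium with insulin, transferrin, selenium and the glucocorticoid dexamethasone. The knockout cells had the VWA8 gene, which encodes a mitochondrial ATPase-domain protein, removed with CRISPR/Cas9. The wild-type cells were the comparison, and per the design text separate cultures of each were differentiated before RNA was taken, 4 wild-type and 4 knockout cultures with 1 Affymetrix array each. How many clones the knockout cultures came from is stated neither in the labels nor in the design text, so an effect of the deletion and a difference between clones cannot be told apart.

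D cyclins are made in response to growth factors, bind CDK4 or CDK6, and start the phosphorylation of the retinoblastoma protein. E cyclins then bind CDK2 and complete it, which frees E2F factors to switch on the genes of DNA replication. Cdkn1b encodes p27, which binds cyclin-CDK2 and also cyclin D-CDK4 complexes, and Cdkn2c encodes p18, which binds CDK4 and CDK6 alone. In the liver, cyclin D1 is the D cyclin best known for its induction when hepatocytes leave rest after loss of tissue.

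The 4 of these genes that passed the test were all lower in the knockout, and they were the cyclin D1 gene and the genes of the 3 kinases. Ccnd1 stood at 51.3% of its wild-type level, Cdk4 at 69.4%, Cdk6 at 70.4% and Cdk2 at 81.7%. The other 5 measured genes, Ccnd2, Ccnd3, Ccne1, Cdkn1b and Cdkn2c, did not pass. Tests were made in limma over all 22180 genes with Benjamini-Hochberg adjustment and a threshold of 0.05. Of all genes, 10.4% were called lower and 10.4% higher (20.9% in either direction), against 4 of 9 and 0 of 9 here. Of the 4 called lower, Cdk2 and Cdk4 lie on chromosome 10 and Cdk6 on chromosome 5. These chromosomes had the largest shares of genes called lower, at 23.0% and 18.7%. At an unadjusted limma p of 0.05 the counts were 5 lower, with Cdkn1b added, and 0 higher, where 15.8% of all genes were lower and 15.3% higher. The median log2 fold change of the 9 was -0.21, beside -0.003 over all genes. In 5 of the 9 genes all knockout arrays lay below all wild-type arrays, as they did for 13.2% of all genes (26.1% were separated in either direction).

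Promoter sequences are shown for the kinase genes because all 3 were called lower. They are marked for the E-box CACGTG, which MYC-family proteins bind, and for an E2F motif. The genes of those factors went both ways: Myc fell and Mycn rose, and Tfdp1, E2f7 and E2f8 fell while E2f1, E2f5 and E2f6 rose. Each is the run of 250 bases just before a RefSeq transcript start (assembly GRCm38.p6), written 5′ to 3′ on the gene's strand, with E-boxes and E2F motifs in capitals. The Cdk4 window is chr10:127063285-127063534 on the plus strand, the Cdk2 window chr10:128705052-128705301 on the minus strand, and the Cdk6 window chr5:3343643-3343892 on the plus strand. The Cdk6 window lies inside the annotated span of its gene, since another transcript is annotated to start earlier.
Cdk4: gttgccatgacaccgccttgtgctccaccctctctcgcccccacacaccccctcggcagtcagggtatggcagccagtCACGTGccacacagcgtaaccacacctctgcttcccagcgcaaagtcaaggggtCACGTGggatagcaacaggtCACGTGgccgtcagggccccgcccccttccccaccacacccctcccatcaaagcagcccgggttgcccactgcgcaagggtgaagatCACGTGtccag
Cdk2: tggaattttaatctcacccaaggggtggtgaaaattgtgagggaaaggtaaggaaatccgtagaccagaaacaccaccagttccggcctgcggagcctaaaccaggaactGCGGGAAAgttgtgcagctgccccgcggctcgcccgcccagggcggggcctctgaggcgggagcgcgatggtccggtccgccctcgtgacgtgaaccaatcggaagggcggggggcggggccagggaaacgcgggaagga
Cdk6: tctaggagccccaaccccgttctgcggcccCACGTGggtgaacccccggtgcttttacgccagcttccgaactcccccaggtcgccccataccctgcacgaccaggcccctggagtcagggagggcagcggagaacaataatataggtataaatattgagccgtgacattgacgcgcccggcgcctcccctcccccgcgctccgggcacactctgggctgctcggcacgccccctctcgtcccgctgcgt

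The Cdk4 window held 4 E-boxes, which began at -172, -118, -98 and -11 from the annotated start. The Cdk6 window held 1, at -220, and the Cdk2 window none. The E2F motif, searched as TTTCCCGC, TTTGGCGC, TTTCGCGC or TTTGCCGC on both strands, occurred once in the Cdk2 window, as GCGGGAAA at -140, and in neither of the other windows. Among 32851 RefSeq windows of the same length, 6.02% held an E-box and 1.86% an E2F motif. The AP-1 motif TGACTCA (4.46% of all windows) was found in none of these 3, nor was the TEAD motif GGAATG (12.6%). The GC box GGGCGG (32.7% of all windows) occurred 5 times in the Cdk2 window, once in that of Cdk4 and not in that of Cdk6. All motifs were searched on both strands, and no matches in these 3 windows overlapped. They were chosen with the expression values known, and a match is a description of these letters only. Of the 10 genes, 7 had an entry in the RefSeq promoter table, and Ccnd1, Ccnd2 and Ccne2 had none. The windows of Ccnd3, Ccne1, Cdkn1b and Cdkn2c, not printed here, held no E-box and no E2F motif.

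Among the D cyclins only Ccnd1 passed the test. Its log2 signal was 10.58, 10.59, 10.62 and 10.62 on the wild-type arrays and 9.67, 9.66, 9.64 and 9.58 on the knockout arrays. The groups were separated by 0.91, the widest gap of the 9 genes, and the arrays within each group lay close together. The means were 10.60 ± 0.021 (SD, n = 4) and 9.64 ± 0.042 (n = 4), a log2 fold change of -0.96 ± 0.051 (SE; limma adjusted p = 4.62e-06, 95% interval -1.08 to -0.85). By p-value the gene ranked 107 of 22180. Ccnd1 (Entrez Gene 12443, probe set 17498502) lies at chr7:144929931-144939831 in GRCm38.p6.

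Ccnd2, the cyclin D2 gene (Entrez Gene 12444, probe set 17471222, chr6:127125162-127152188), read 8.93, 9.11, 9.01 and 9.10 in wild-type cells and 8.99, 8.95, 8.92 and 8.997 in knockout cells. The ranges overlapped, and the log2 fold change of -0.07 ± 0.061 did not pass in limma (adjusted p = 0.514, 95% interval -0.21 to 0.07). Ccnd3, the cyclin D3 gene (Entrez Gene 12445, probe set 17338269, chr17:47505051-47599689), read 7.36, 7.42, 7.13 and 7.26 in wild-type cells and 7.42, 7.43, 7.50 and 7.28 in knockout cells. Here too the groups overlapped, and the value of 0.11 ± 0.081 did not pass in limma (adjusted p = 0.401, 95% interval -0.07 to 0.30). The intervals of Ccnd2 and Ccnd3 both lay clear of that of Ccnd1.

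**Figure D1:**
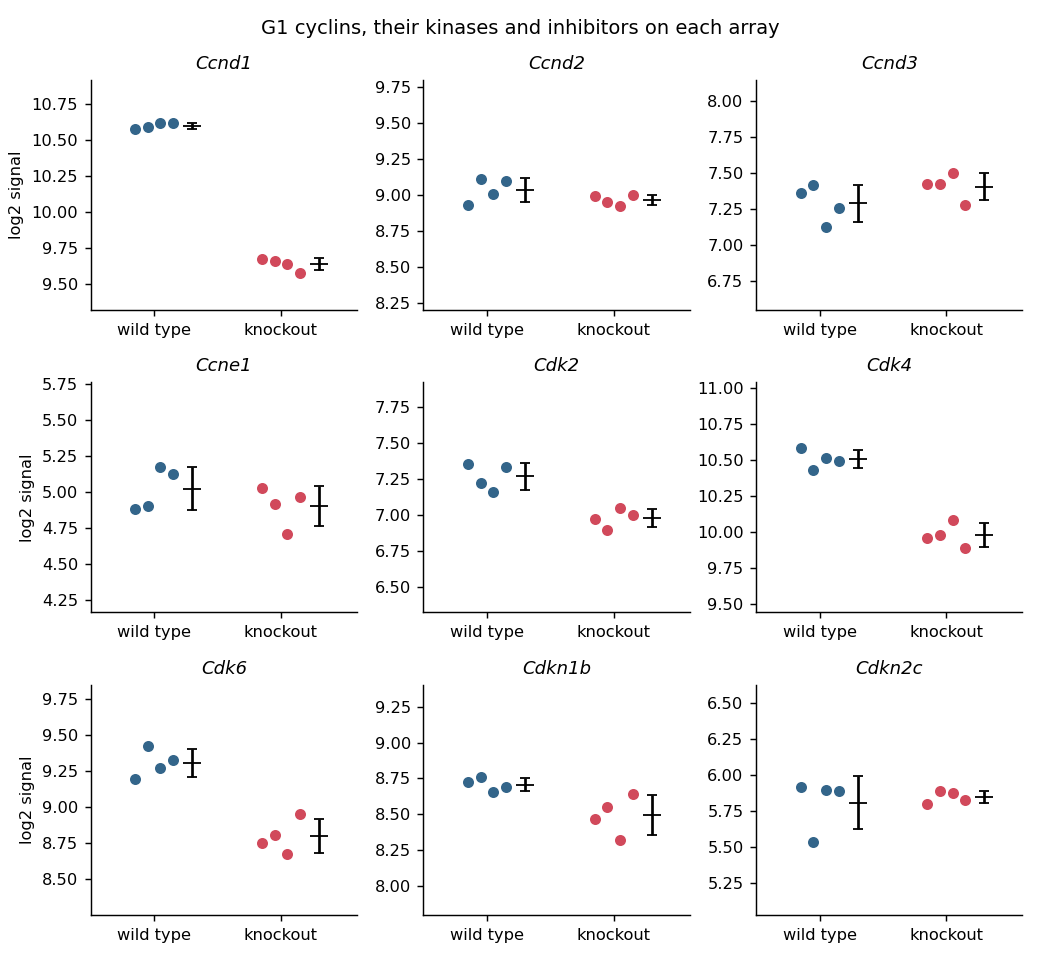
Log2 signal of the 9 measured genes on each of 4 wild-type (blue) and 4 knockout (red) arrays, with mean and SD as black bars. Each panel spans the same number of log2 units around its own level, and the groups are furthest apart for Ccnd1, at 10.60 against 9.64.

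The ratio of relatives within an array shows whether they changed unequally. The log2 ratio of Ccnd1 to Ccnd2 ran from 1.48 to 1.65 in wild-type cells and from 0.58 to 0.72 in knockout cells, a difference of -0.89 ± 0.051 (SE, 4 arrays per group). For Ccnd1 over Ccnd3 the difference was -1.08 ± 0.081, from 3.31 to 2.23 in the mean. Neither pair of groups overlapped. The two-sided exact permutation test over the 70 arrangements of the arrays gave p = 0.0286 for each, the smallest that 4 against 4 allow, and 0.0667 after adjustment over the 7 pairs computed, so at this size neither difference passed. For Ccnd2 over Ccnd3 the difference was -0.18 ± 0.096 with overlapping groups (exact permutation p = 0.143, adjusted 0.167). These ratios compare changes and say nothing of which cyclin is the more abundant.

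Ccne1, the cyclin E1 gene (Entrez Gene 12447, probe set 17489886, chr7:38097984-38107490), had a dim signal, not far above the median of 4.29 over all probe sets. It read 4.89, 4.91, 5.17 and 5.13 in wild-type cells and 5.03, 4.92, 4.71 and 4.97 in knockout cells. The groups overlapped, with wild-type replicates 3 and 4 above every knockout array and wild-type replicates 1 and 2 among them. The log2 fold change was -0.12 ± 0.096 and did not pass in limma (adjusted p = 0.476, 95% interval -0.34 to 0.10). A dim signal cannot be told from little expression here, and a change in it may be compressed.

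Cdk4 and Cdk6, the kinases that D cyclins activate, both fell. Cdk4 (Entrez Gene 12567, probe set 17237899, chr10:127063535-127067288) read 10.58, 10.43, 10.51 and 10.49 in wild-type cells and 9.96, 9.98, 10.09 and 9.89 in knockout cells. All knockout arrays were lower, with 0.34 between the groups, and the log2 fold change was -0.53 ± 0.064 (limma adjusted p = 0.000445). Cdk6 (Entrez Gene 12571, probe set 17434297, chr5:3341004-3531008) read 9.20, 9.43, 9.27 and 9.32 in wild-type cells and 8.75, 8.81, 8.68 and 8.95 in knockout cells. Its groups were 0.24 apart, and it stood at -0.51 ± 0.079 (limma adjusted p = 0.00181). The log2 ratio of Cdk4 to Cdk6 overlapped between the groups, with a difference of -0.02 ± 0.126 (exact permutation p = 0.80, adjusted 0.80), and its error is too wide to show that the changes were equal.

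Cdk2, the kinase that E cyclins activate (Entrez Gene 12566, probe set 17246299, chr10:128697938-128705051), fell least of the 4. It read 7.36, 7.22, 7.16 and 7.34 in wild-type cells and 6.97, 6.89, 7.05 and 6.9995 in knockout cells. The groups did not overlap but were only 0.11 apart, between wild-type replicate 3 and knockout replicate 3. The log2 fold change was -0.29 ± 0.067 (limma adjusted p = 0.0139). The ratio of Cdk2 to Cdk4 was higher in every knockout array, by 0.24 ± 0.060 (exact permutation p = 0.0286, adjusted 0.0667), and that of Cdk2 to Cdk6 overlapped, at 0.22 ± 0.108 (exact permutation p = 0.114, adjusted 0.16).

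**Figure D2:**
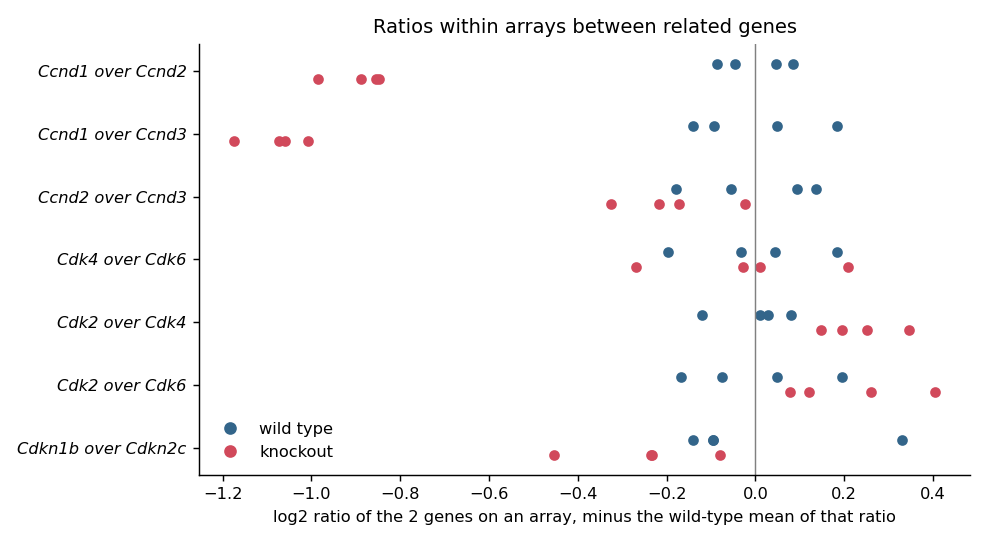
Log2 ratio of 2 related genes within each array, minus the wild-type mean of that ratio, for 4 wild-type (blue) and 4 knockout (red) arrays and 7 pairs. The knockout arrays are set apart for Ccnd1 over Ccnd2 and Ccnd1 over Ccnd3, and to a lesser extent for Cdk2 over Cdk4, while the other pairs overlap.

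The inhibitor genes did not pass. Cdkn1b (Entrez Gene 12576, probe set 17463718, chr6:134920401-134925525) read 8.72, 8.76, 8.66 and 8.69 in wild-type cells and 8.47, 8.55, 8.32 and 8.65 in knockout cells. Every knockout array was below every wild-type array, but by only 0.01, with knockout replicate 4 next to the wild-type cells and the knockout arrays spread more widely (SD 0.137 against 0.044). The log2 fold change was -0.21 ± 0.076 (limma adjusted p = 0.0909). Without knockout replicate 4 it was -0.26 and passed, with a limma adjusted p of 0.0457. It also passed with an intensity trend and robust variances (limma adjusted p = 0.0161) and without the dimmest 50% of probe sets (limma adjusted p = 0.0332).

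Cdkn2c (Entrez Gene 12580, probe set 17428217, chr4:109660876-109666756) read 5.92, 5.53, 5.89 and 5.88 in wild-type cells and 5.80, 5.89, 5.87 and 5.82 in knockout cells. Wild-type replicate 2 was the lowest of all 8 arrays, and the rest lay between 5.80 and 5.92. The value of 0.04 ± 0.092 did not pass in limma (adjusted p = 0.827, 95% interval -0.17 to 0.25). The ratio of Cdkn1b to Cdkn2c differed by -0.25 ± 0.134 with overlapping groups (exact permutation p = 0.114, adjusted 0.16). The knockout arrays did not keep 1 order over the set: replicate 4 was the highest for Ccnd2, Cdk6 and Cdkn1b and the lowest for Ccnd1, Ccnd3 and Cdk4.

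**Figure D3:**
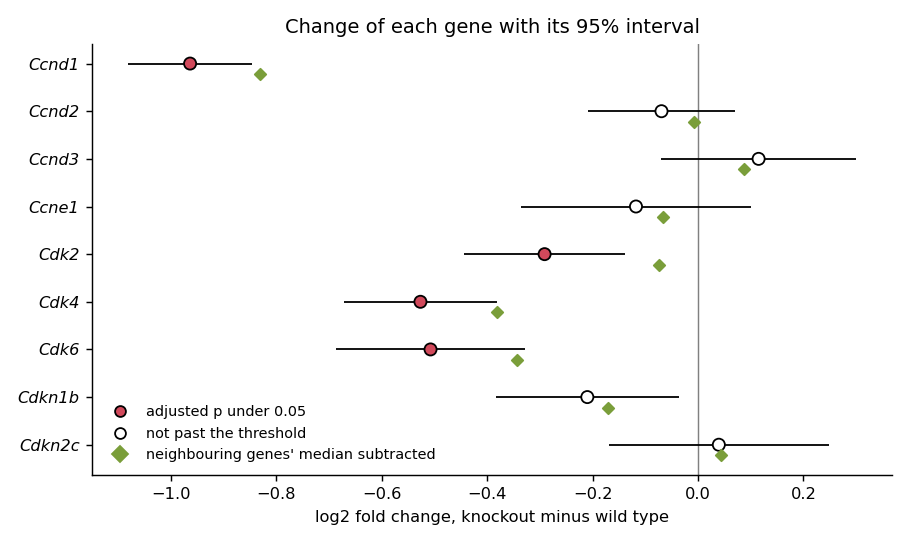
Log2 fold change (knockout minus wild type) of the 9 genes with its 95% interval from limma; filled circles passed an adjusted p of 0.05 and open circles did not. Diamonds give the value after the median change of neighbouring genes was subtracted, which brought Cdk2 from -0.29 to -0.075 and left Ccnd1 at -0.83.

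Cdk2 and Cdk4 lie 1.63 Mb apart on chromosome 10, where 23.0% of genes of any signal were called lower and 4.74% higher. The gene starts nearest to each member were therefore set beside it, taking up to 30 genes on each side with a mean signal above that of the median gene. Around Cdk2, 43 such genes had a median log2 fold change of -0.22, and 19 of them were called lower and 3 higher. Cdk2 itself was not set apart from them, with 17 of the 43 lower than it. With that median subtracted, Cdk2 stood at -0.075 and no longer passed (limma adjusted p = 0.491). Windows of 15 and 60 genes on each side, chosen after seeing the data, left it at -0.037 (limma adjusted p = 0.753) and -0.16 (limma adjusted p = 0.141). Here and below the median was subtracted as a fixed value. The p-values after subtraction thus leave out the spread among neighbours and do not test a gene against them. The shift was not confined to this stretch. Over all of chromosome 10, genes above the same signal had a median of -0.18. Such genes had medians of 0.21 on chromosome 3, 0.17 on chromosome 1, 0.16 on chromosome 2 and -0.14 on chromosome 5. What moved these chromosomes was not tested.

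Around Cdk4 the 60 neighbouring genes had a median of -0.14, 23 called lower and 6 higher, and 3 of them were lower than Cdk4. Cdk2 and Cdk4 shared 7 of these neighbours. Cdk4 stood at -0.38 with the median subtracted (limma adjusted p = 0.00303). Cdk6 lies near the start of chromosome 5. On that chromosome 18.7% of genes of any signal were called lower and 5.00% higher, and the brighter genes had a median of -0.14. All 30 neighbours of Cdk6 were on one side, up to 17.4 Mb away, with a median of -0.16, 11 called lower and 2 higher. Cdk6 was close to their lower quartile of -0.50, and 8 of them were lower than it. It stood at -0.34 with the median subtracted (limma adjusted p = 0.0153), and at -0.33 with the window of 15 genes.

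Ccnd1 lies near the end of chromosome 7. On that chromosome 11.7% of genes of any signal were called lower and 5.75% higher, and the brighter genes had a median of -0.08. The 31 neighbours of Ccnd1, 30 of them on one side, had a median of -0.13. Of these, 12 were called lower and 3 higher, and none was lower than Ccnd1. With that median subtracted Ccnd1 stood at -0.83 (limma adjusted p = 1.05e-05). Around the 5 genes that did not pass, the medians ran from -0.06 at Ccnd2 to 0.03 at Ccnd3.

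**Figure D4:**
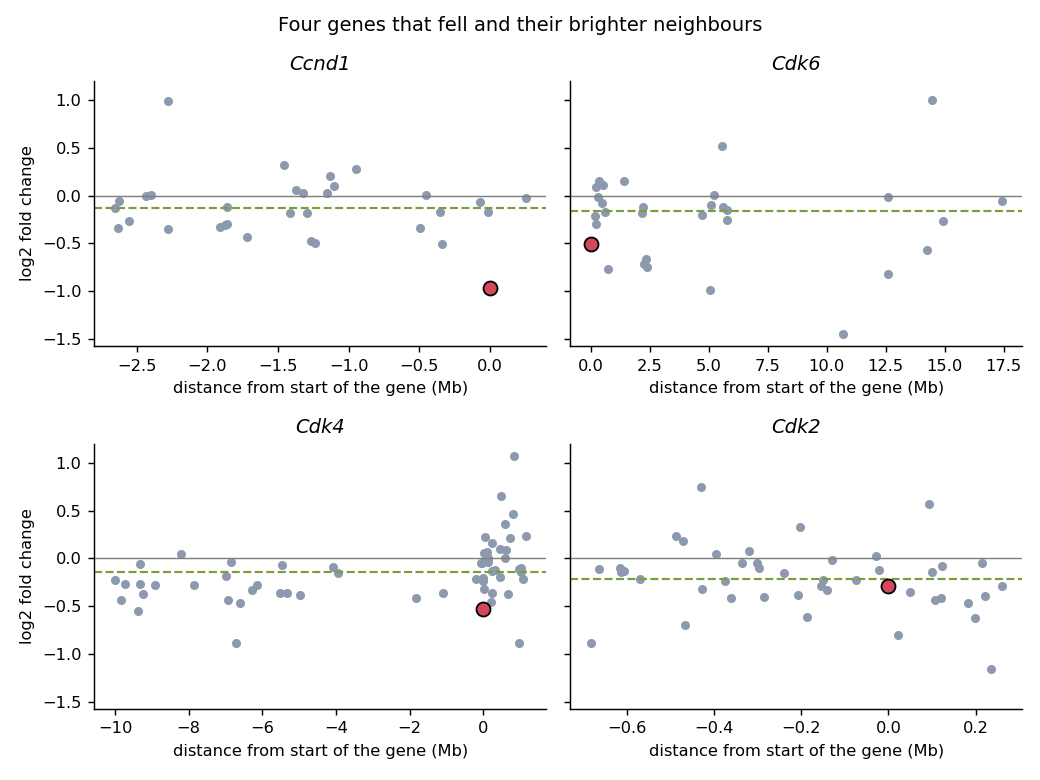
Log2 fold change of Ccnd1, Cdk6, Cdk4 and Cdk2 (red) and of up to 30 brighter genes on each side (grey) against the distance between gene starts in Mb; the dashed line is the neighbours' median. Ccnd1, at -0.96, is below all 31 of its neighbours, whereas Cdk2, at -0.29, lies among its 43.

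Upstream of the D cyclins, 8 of 15 measured genes of mitogenic induction fell and 2, Mycn and Tcf7l2, rose. Over all genes 10.4% were called lower and 10.4% higher. The list had a median log2 fold change of -0.20 (all genes -0.003). Fosl2, an AP-1 subunit, read 7.69, 7.69, 7.83 and 7.69 in wild-type cells and 6.67, 6.64, 6.68 and 6.62 in knockout cells, a log2 fold change of -1.07 ± 0.057. Jun, another AP-1 subunit and a direct activator of Ccnd1, stood at -0.65 ± 0.062, Myc, a growth-promoting transcription factor, at -0.67 ± 0.069, and Ets2, a factor downstream of Ras signalling, at -0.58 ± 0.060. These had limma adjusted p-values of at most 0.000186. Mycn, Tcf7l2, E2f1, E2f5, E2f6, Tk1, Mcm6 and Pcna were singled out once the values were known.

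Of 5 other CDK inhibitor genes, 2 fell and none rose (0 higher also at an unadjusted limma p of 0.05). With 10.4% of all genes called lower and 20.9% either way, 5 genes are too few to make this count a result about inhibitors. Cdkn1a, which encodes p21, stood at -0.21 ± 0.057 (limma adjusted p = 0.0305) and Cdkn2b, which encodes the CDK4 and CDK6 inhibitor p15, at -0.35 ± 0.091 (limma adjusted p = 0.0245). Both calls depended on single arrays. That of Cdkn1a was lost without wild-type replicate 1, 2 or 3 or knockout replicate 1 or 2, and that of Cdkn2b without wild-type replicate 2, 3 or 4 or knockout replicate 1, 2 or 3. The limma adjusted p reached at most 0.0842 and 0.0681 respectively, and the values stayed between -0.23 and -0.18 and between -0.43 and -0.31. None of 5 genes of cyclin-CDK activation (Cdk7, Ccnh, Mnat1, Cdc25a and Cdc37) passed at an adjusted p of 0.05 in limma. At an unadjusted p of 0.05, 2 of them, Mnat1 and Cdc25a, were lower (15.8% of all genes). With 20.9% of all genes called, 0 of 5 is no result about this list.

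Of 14 measured genes for the turnover of cyclins and p27, 2 rose and none fell (2 lower at an unadjusted limma p of 0.05). That is 14.3% of the list, below the 20.9% of all genes called, so the count is no result about turnover genes. Fbxw7, the substrate receptor of the ubiquitin ligase that removes cyclin E, rose by 0.25 ± 0.063 (limma adjusted p = 0.0235). Fbxo31, an F-box protein for cyclin D1, rose by 0.28 ± 0.072 (limma adjusted p = 0.0225). The call of Fbxw7 was lost without wild-type replicate 1 or 3 or knockout replicate 2 or 3 (limma adjusted p at most 0.0661, values 0.21 to 0.27). With its neighbours' median subtracted Fbxw7 stood at 0.11 (limma adjusted p = 0.273). The call of Fbxo31 was lost without wild-type replicate 2 or 4 or knockout replicate 2 or 3 (limma adjusted p at most 0.0608, values 0.24 to 0.32), and the window of 15 neighbours put it at 0.47. Skp2, the receptor that directs p27 to degradation, stood at -0.03 ± 0.062 (limma adjusted p = 0.815).

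Downstream, the pocket protein and E2F list went both ways, with 4 of 13 genes higher, 4 lower and 5 that did not pass (median -0.08). Over all genes 10.4% were called higher and 10.4% lower. Rb1, the retinoblastoma gene, stood at -0.08 ± 0.054 (limma adjusted p = 0.348). Rbl2, which encodes p130, the pocket protein of resting cells, read 8.89, 8.91, 8.96 and 8.87 in wild-type cells and 9.57, 9.53, 9.52 and 9.59 in knockout cells. It was higher in every knockout array, by 0.65 ± 0.052 (limma adjusted p = 4.37e-05), or by 0.37 with the median of 15 neighbours on each side subtracted (limma adjusted p = 0.00117). E2f8, a repressor E2F that is itself an E2F target, read 6.27, 6.28, 6.13 and 6.39 in wild-type cells and 3.96, 4.56, 4.41 and 3.82 in knockout cells, a log2 fold change of -2.08 ± 0.160. Its relative E2f7 stood at -0.66 ± 0.090 and Tfdp1 at -0.36 ± 0.050, with limma adjusted p-values of 0.000903 and 0.000858. With their neighbours' median subtracted they stood at -0.43 and -0.20, both past the threshold in limma (adjusted p = 0.00958 and 0.0215). In knockout cells E2f8 and E2f7 were dim, with means of 4.19 and 4.34 near the median of 4.29 over all probe sets.

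The lists of E2F targets of S phase entry and of the later cyclins had the lowest medians of the 7. Beside both counts, 10.4% of all genes were called lower and 10.4% higher (15.8% and 15.3% at an unadjusted limma p of 0.05). Of 15 measured S phase genes 10 fell and 1, Tk1, rose (median -0.88). The helicase genes Mcm3, Mcm4 and Mcm5 stood at -1.10 ± 0.082, -1.08 ± 0.056 and -1.12 ± 0.076, and Pola1, the catalytic subunit of DNA polymerase alpha, at -1.22 ± 0.091. These were named for the smallest adjusted p and do not stand for the whole list. Mcm6, another helicase gene, fell by less, at -0.19 ± 0.053, and Pcna, at -0.006, was 1 of 4 genes that did not pass. Of 7 measured genes of the later cyclins and CDK1 control, 5 fell and none rose (median -1.53; 6 lower and 0 higher at an unadjusted limma p of 0.05). Ccna2, the cyclin A2 gene, whose protein takes over CDK2 in S phase, read 7.53, 7.57, 7.53 and 7.82 in wild-type cells and 5.45, 5.75, 5.67 and 5.54 in knockout cells. It stood at -2.01 ± 0.092, Ccnb2, a mitotic cyclin gene, at -1.69 ± 0.094, Cdk1 at -1.55 ± 0.158 and the phosphatase gene Cdc25c at -1.53 ± 0.128. Cdc25c was dim, with means of 4.84 in wild-type and 3.31 in knockout cells. The differences between these lists and the G1 genes were not tested. In bulk RNA of this kind, fewer dividing cells and less RNA per dividing cell cannot be told apart.

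**Figure D5:**
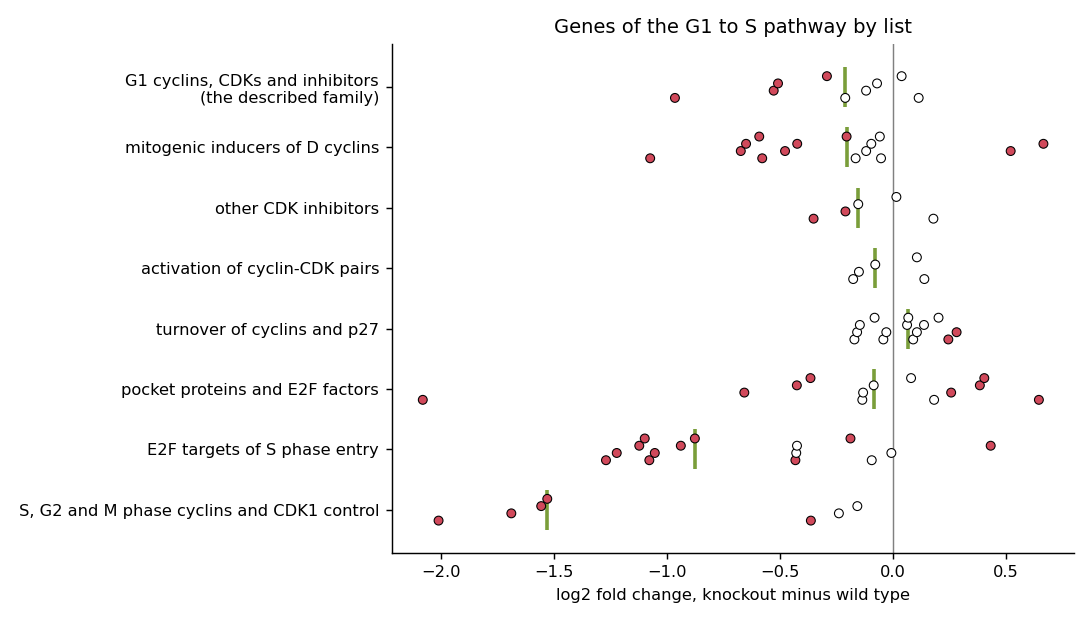
Log2 fold change of each measured gene in the G1 family and in 7 lists of the pathway; filled circles passed an adjusted p of 0.05, open circles did not, and green bars are list medians. The medians run from 0.07 for cyclin and p27 turnover to -1.53 for the later cyclins and CDK1 control.

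Vwa8 itself read 8.91 to 9.01 on the wild-type arrays and 5.07 to 5.33 on the knockout arrays, so that each library labelled knockout was below every wild-type one. Array medians lay between 4.27 and 4.33, and arrays correlated with r of 0.978 to 0.989. All 6 measured hepatocyte markers were above the median probe set, with Alb, Ttr, Apoa1 and Hnf4a higher and Krt8 and Krt18 lower in the knockout, and log2 summed signals of 14.3 to 14.4 in wild-type and 14.5 to 14.6 in knockout cells. Of 5 fibroblast and stellate markers none was above the median probe set, nor was any called, and no leukocyte or endothelial marker was called among 5 each (at an unadjusted limma p of 0.05 the counts were 1, 1 and 0). Above the median probe set were 2 of 5 leukocyte, 1 of 5 endothelial and 3 of 4 cholangiocyte markers. Of 4 cholangiocyte markers Krt7 was called, lower in the knockout, while the summed signal of the list overlapped (10.55 to 10.63 and 10.54 to 10.65). The part of these markers in the results was not tested.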

How the data were processed

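Total RNA was labelled with biotin and hybridised to Affymetrix mouse arrays, per the labels' protocols. The deposited values are the authors' log2 signals, 1 per probe set and array; the log2 scale was read from the values, and neither the labels nor the design text state the authors' background correction or normalization. No normalization was added. Genes were named from the platform annotation (23521 of 41345 probe sets had 1 symbol, 1814 several, 16010 none listed), and 21994 of 22180 genes were placed on GRCm38.p6 by Entrez identifier. The 2 groups were compared with limma 3.58.1 in R 4.3.3 on all 8 arrays, genotype as the only term. Nothing beyond the design text's separate cultures shows that replicates are independent, so p-values measure the spread between these arrays, and 4 arrays per group limit the precision. The fit was run on simulated data with independent noise per gene and a small share of genes changed. Here many genes were called and whole chromosomes shifted, so that run checks the code and not these calls.

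The members and all lists were chosen with earlier results of these data known. The text names the 10 members, Vwa8, up to 4 called genes of smallest adjusted p per list, and Rb1, Cdkn1a, Skp2 and Myc. Of 8 planned pairs, 7 were computed, as Ccne2 had no value. Of the lists, 4 genes shared a probe set with another gene (Rbx1, Fosl1, Ccnf, Pkmyt1), and these and Ccnb1 were not analysed here. Same-numbered arrays did not deviate together (r from -0.002 to 0.059), so the numbers were not taken as pairs. Alternatives were a replicate block, 2 rescalings (quantile, median), robust variances with an intensity trend, weighted arrays, filters on the dimmest 25% or 50% of probe sets, averaging of probe sets per gene, subtraction of the neighbours' median change, and each array left out in turn.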

Additional observations from a re-analysis of the deposited data

Results flagged for a closer look

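In 4 of 78 groups of 4 arrays examined (5.13%), 1 array lay far from the others for its group's range, about the 1 in 20 that chance gives. Wild-type replicate 2 was low for Cdkn2c, at 5.53 where the others read 5.88 to 5.92, a gap of 0.918 of the range. The same array set apart the wild-type log2 ratio of Cdkn1b to Cdkn2c, at 3.23 against 2.76 to 2.81 (0.903 of the range). Wild-type replicate 4 was high for Ccna2, at 7.82 against 7.53 to 7.57 (0.852 of the range). Wild-type replicate 3 was high for Fosl2, at 7.83 against 7.69 for each of the others (0.947 of the range).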

How the results depend on the processing

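Ccnd1, Cdk4, Cdk6 and Vwa8 passed under all 19 alternatives. Ccnd1 lay between -0.99 and -0.83, Cdk4 between -0.56 and -0.36 and Cdk6 between -0.56 and -0.33. Ccnd2, Ccnd3, Ccne1 and Cdkn2c passed under none. The neighbour windows among the 19 do not test a gene against its neighbours' spread. Cdk2 passed except with its neighbours' median subtracted (-0.075; -0.037 and -0.16 with the smaller and larger window), where its neighbours' own fall was removed. Cdkn1b (-0.21) passed with an intensity trend and robust variances and without the dimmest 50% of probe sets (both at -0.21), and ran from -0.26 to -0.15 on leaving out 1 array. With the replicate number as a block, 3717 genes were called (4626 without it), 1 other CDK inhibitor (2 without the block) and 0 turnover genes (2 without it), no call of a member was changed, and 2 of the 4 wild-type arrays correlated best with their own number. Median centring called 1 other CDK inhibitor. Turnover genes called numbered 4 with the intensity trend, 4 without the dimmest 50% of probe sets and 1 with each neighbour window; without the dimmest 50%, 2 cyclin-CDK activation genes were called. Leaving out 1 array called 0 to 2 other CDK inhibitors and 0 to 2 turnover genes. Beyond what is said here the cause was not tested. The 7 ratios missed the threshold in each of 9 alternatives, from which no conclusion is drawn. Averaging changed no ratio, as each member had a single probe set, and dropping an array cannot lower the smallest exact permutation p of 0.0286. No adjusted p went below 0.0667. The differences of the separated pairs kept their size: -0.92 to -0.86 for Ccnd1 over Ccnd2, -1.12 to -1.02 for Ccnd1 over Ccnd3 and 0.20 to 0.26 for Cdk2 over Cdk4.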
